A study of Mus musculus with 32 samples.

Results

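The dystrophin-glycoprotein complex was followed in mouse muscle through the mRNA of 8 of its genes, Dmd, Utrn, Dag1, Sgca, Sgcb, Sgcd, Sntb1 and Dtna. They were chosen by name, each Ensembl identifier of the count table being matched to 1 of these symbols, and are 8 of the 55487 genes in the table. All 8 were found, and all 8 passed the filter on low counts in both muscles. The libraries came from mice whose type I receptor genes for TGF-β family ligands had been knocked out in myofibres: mice lacking both Acvr1b and Tgfbr1 (double KO), Acvr1b KO mice, Tgfbr1 KO mice and control mice. Knockout was induced with tamoxifen when the mice were 6 weeks old, and the soleus, a mainly slow muscle, and the gastrocnemius medialis, a mainly fast muscle, of the left leg were frozen 3 months later. Each of the 8 groups held 4 libraries of polyA RNA from whole muscle, and both muscles came from the same 16 mice. The labels name neither the promoter of the recombinase nor the alleles of the control mice, and they do not say whether controls received tamoxifen.

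Dystrophin, the product of Dmd, ties the actin cytoskeleton under the muscle membrane to dystroglycan, which is made from Dag1. Dystroglycan reaches through the membrane and, by sugar chains on its outer part, holds laminin in the basal lamina. The sarcoglycans (among them Sgca, Sgcb and Sgcd) form a subcomplex beside it, and dystrobrevin (Dtna) and the syntrophins (among them Sntb1) are adaptors on the inner face that anchor signalling proteins such as neuronal nitric oxide synthase. Utrophin, the product of Utrn, is a paralogue of dystrophin that is concentrated at the neuromuscular junction of adult fibres. Loss of dystrophin causes Duchenne muscular dystrophy, and loss of a sarcoglycan causes limb-girdle muscular dystrophies.

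RefSeq promoter windows (GRCm38.p6, 250 bases before to 50 bases after an annotated start) were matched by symbol for 6 of the 8 genes, which have 8 windows between them. Sntb1 and Dtna have none here. The 4 shown belong to the 2 pairs of members whose levels varied most alike over the 32 libraries, Dmd with Sgcb and Dag1 with Sgcd, and capitals mark each E-box (CANNTG, which reads the same on both strands). The Dmd window lies at chrX:82948620-82948919 on the plus strand, the Sgcb window at chr5:73647688-73647987, the Dag1 window at chr9:108263909-108264208 and the Sgcd window at chr11:47379276-47379575, these last on the minus strand.
Dmd: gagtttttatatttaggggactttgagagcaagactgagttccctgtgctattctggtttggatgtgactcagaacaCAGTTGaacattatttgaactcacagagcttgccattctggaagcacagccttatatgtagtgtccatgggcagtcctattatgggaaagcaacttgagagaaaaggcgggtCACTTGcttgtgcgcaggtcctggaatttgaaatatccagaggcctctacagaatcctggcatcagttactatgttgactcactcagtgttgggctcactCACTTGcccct
Sgcb: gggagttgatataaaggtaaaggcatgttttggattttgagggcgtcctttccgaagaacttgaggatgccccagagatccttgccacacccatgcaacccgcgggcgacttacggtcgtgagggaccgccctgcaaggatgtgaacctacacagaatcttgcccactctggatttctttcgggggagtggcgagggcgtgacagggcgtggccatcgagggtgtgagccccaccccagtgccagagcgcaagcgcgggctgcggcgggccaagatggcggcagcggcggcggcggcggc
Dag1: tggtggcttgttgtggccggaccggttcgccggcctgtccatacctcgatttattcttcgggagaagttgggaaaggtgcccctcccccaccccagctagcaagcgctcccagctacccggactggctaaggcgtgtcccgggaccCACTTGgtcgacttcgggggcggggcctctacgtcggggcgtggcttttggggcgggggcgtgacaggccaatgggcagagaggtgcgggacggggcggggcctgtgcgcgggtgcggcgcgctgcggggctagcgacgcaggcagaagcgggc
Sgcd: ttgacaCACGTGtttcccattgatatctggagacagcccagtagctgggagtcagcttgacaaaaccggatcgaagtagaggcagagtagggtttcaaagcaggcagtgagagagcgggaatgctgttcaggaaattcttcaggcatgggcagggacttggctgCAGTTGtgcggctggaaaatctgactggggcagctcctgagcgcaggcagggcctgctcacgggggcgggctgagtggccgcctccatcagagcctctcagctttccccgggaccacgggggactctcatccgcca
The Dmd window shown holds 3 E-boxes, the Sgcd window 2, the Dag1 window 1 and the Sgcb window 0, and 72.3% of all 32851 windows of this length hold at least 1. The SMAD box CAGAC, searched as CAGAC and GTCTG, is in 0 of these 4 windows, in 3 of all 8 windows of the members (those of Utrn and Sgca and the other Dmd window) and in 49.6% of all windows. Each match describes letters in a window and not a bound site.

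Total counts per library ran from 16535118 to 54456450. The muscles matched their labels, since the slow myosin gene Myh7 measured 4184 to 10177 CPM (read counts scaled to the TMM-adjusted library size) in the 16 soleus libraries and 318 to 1037 in the 16 gastrocnemius libraries, whereas the fast myosin gene Myh4 measured 586 to 8408 and 51519 to 95315 CPM. Acvr1b measured 14.03 to 23.3 CPM in double KO, 23.7 to 27.2 in Acvr1b KO and 94.2 to 117 in control gastrocnemius, and 6.93 to 10.05, 11.1 to 13.9 and 29.1 to 46.0 in the same groups of soleus. Tgfbr1 measured 38.4 to 56.3 CPM in double KO, 24.6 to 31.8 in Tgfbr1 KO and 22.9 to 37.5 in control gastrocnemius, so counts over the whole gene do not check those labels. 4 libraries stood apart and are named where they bear on a value. In gastrocnemius control 1 mitochondrial genes took 25.99% of the counts (at most 19.3% in the other gastrocnemius libraries). Gastrocnemius Tgfbr1 KO 1 was the shallowest library. The mean correlation with its own group was 0.980 for gastrocnemius double KO 1, the lowest of that group only. For soleus double KO 1 it was 0.948, the lowest of all 32. The double KO mice carry animal numbers from a range of their own. So do the control mice, whose numbers lie above those of every Acvr1b KO and Tgfbr1 KO mouse. Numbers of the single knockouts interleave. In comparisons with double KO or control mice, genotype and cohort therefore cannot be told apart.

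Per exon length, the 8 mRNAs differed widely in level and kept nearly the same order in every group. The length is that of all exons of a gene merged, and isoforms were not told apart, which limits comparisons between genes. In control gastrocnemius, Sgca, the α-sarcoglycan found in striated muscle, was highest, with 67.5 ± 10.7 CPM per kb of exon (mean ± SD, n = 4). Dag1 followed with 44.6 ± 1.56 and Sgcb, which encodes β-sarcoglycan, with 26.5 ± 3.69. Dtna (6.18 ± 0.670) and Dmd (4.22 ± 0.998) came next, with ranges that overlapped. Utrn (1.76 ± 0.308), Sgcd (1.04 ± 0.113) and Sntb1 (0.756 ± 0.150) were lowest, and no other neighbours in this order overlapped. Sgca exceeded Dag1 in 32 of the 32 libraries, Dag1 exceeded Sgcb in 31, Dmd exceeded Utrn in 30 and Sgcd exceeded Sntb1 in 29. In control soleus the order was the same and no neighbours overlapped. In double KO soleus the ranges of Dag1 and Sgcb, of Dmd and Utrn, and of Sgcd and Sntb1 overlapped. In double KO gastrocnemius only Dtna and Dmd did.

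**Figure D1:**
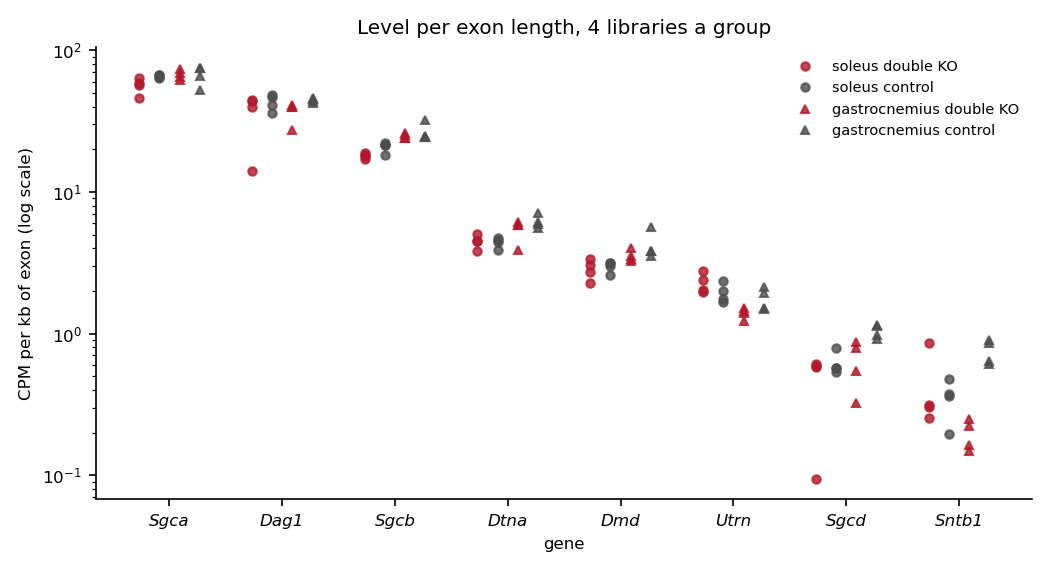
Level of each gene per exon length (CPM per kb, log scale) in soleus (circles) and gastrocnemius (triangles) of double KO and control mice, 1 point per library. Sgca lies highest and Sntb1 has the lowest mean in each of the 4 groups, and the gastrocnemius Sntb1 points of double KO mice (0.147 to 0.248) lie below those of control mice (0.611 to 0.907).

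The question put to the gastrocnemius was whether losing both receptors changes mRNAs of the complex. Only Sntb1 passed the test, and it fell. Sntb1 encodes a β-type syntrophin, an adaptor that binds dystrophin and dystrobrevin (ENSMUSG00000060429, GRCm38 chromosome 15, 55636388 to 55906949, minus strand). It measured 1.18, 1.32, 0.782 and 0.864 CPM in double KO libraries 1 to 4, against 4.58, 3.43, 4.83 and 3.25 CPM in control libraries. The double KO libraries all lay below the lowest control library, and no values overlapped. Sntb1 was 3.87-fold lower, a log2 fold change of -1.95 (SE 0.225, 95% interval -2.43 to -1.48, edgeR quasi-likelihood test, adjusted p = 1.52e-05). In a ranking of all 17536 genes tested by log2 fold change, Sntb1 was number 80 from the lowest. The level is low: the double KO libraries held 31 to 45 counts of it and the control libraries 124 to 172. It kept its call in 14 of 14 alternatives. Sntb1 lies on the same chromosome as Acvr1b, 45.3 Mb away.

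Of the 8 members 1 was called, or 2 with DESeq2, while 20.9% of the 17536 genes tested were called in this comparison, and 9.59% were called lower, so the count of members does not stand above the background. The log2 fold change was below 0 for 7 of the 8, with a median of -0.25 against 0.0004 over all genes tested, and 4 of the 8 had an unadjusted p under 0.05, as had 33.8% of all genes. The libraries of the groups did not overlap for Sntb1, Sgcd and Dag1. The share of all genes tested whose groups did not overlap was not computed, so this is not set against a background.

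Sgcd, which encodes δ-sarcoglycan (chromosome 11), measured 2.68, 4.50, 7.14 and 6.58 CPM in double KO gastrocnemius, against 9.42, 7.55, 9.33 and 8.05 CPM in control gastrocnemius. All double KO libraries lay below all control libraries, and double KO 1 was the lowest. The log2 fold change was -0.70 (SE 0.258, 95% interval -1.24 to -0.15) and did not pass the test (edgeR adjusted p = 0.0650). It passed without double KO 3 (-0.88, adjusted p = 0.0407), with DESeq2 (adjusted p = 0.0346) and with the replicate block (edgeR adjusted p = 0.0186). The replicate number did not pair genotypes, since same-numbered double KO and control libraries correlated by only -0.180 to 0.096. The pass with that block is therefore given as a description only. Over 14 alternatives the adjusted p ran from 0.0186 to 0.143. The other sarcoglycan members showed smaller differences. Sgca measured 108 to 128 CPM in double KO and 91.5 to 131 in control gastrocnemius (log2 fold change 0.01, 95% interval -0.20 to 0.22, edgeR adjusted p = 0.953). Sgcb measured 97.9 to 105 CPM in double KO and 99.2 to 130 in control gastrocnemius (-0.08, -0.27 to 0.10, edgeR adjusted p = 0.547), with control 1 well above the other 3 control libraries. Per exon length, Sgcd stood at 0.523 to 1.26% of Sgca in double KO libraries and at 1.21 to 2.16% in control libraries, ranges that overlap slightly.

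Dag1, the dystroglycan gene (chromosome 9), measured 175, 255, 260 and 255 CPM in double KO gastrocnemius, against 271, 280, 287 and 294 CPM in control gastrocnemius. The groups did not overlap, and double KO 1 was far below the other 3 of its group. The difference did not pass the test (log2 fold change -0.25, 95% interval -0.46 to -0.05, edgeR adjusted p = 0.0771), and without double KO 1 and the other libraries that stood apart it was also uncalled. Dmd (chromosome X) measured 77.9, 94.96, 79.7 and 84.01 CPM in double KO and 136, 83.4, 91.7 and 90.8 in control gastrocnemius. Its groups overlapped and control 1 was the highest (-0.25, -0.54 to 0.04, edgeR adjusted p = 0.223). Utrn (chromosome 10) measured 20.8, 25.97, 23.8 and 24.7 CPM in double KO and 36.2, 26.03, 32.9 and 25.5 in control gastrocnemius (-0.33, -0.62 to -0.04, edgeR adjusted p = 0.0989). Dtna, the dystrobrevin gene (chromosome 18), measured 66.1, 104, 99.2 and 98.3 CPM in double KO and 120, 99.9, 93.99 and 104 in control gastrocnemius, with double KO 1 again the lowest (-0.18, -0.43 to 0.07, edgeR adjusted p = 0.316).

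**Figure D2:**
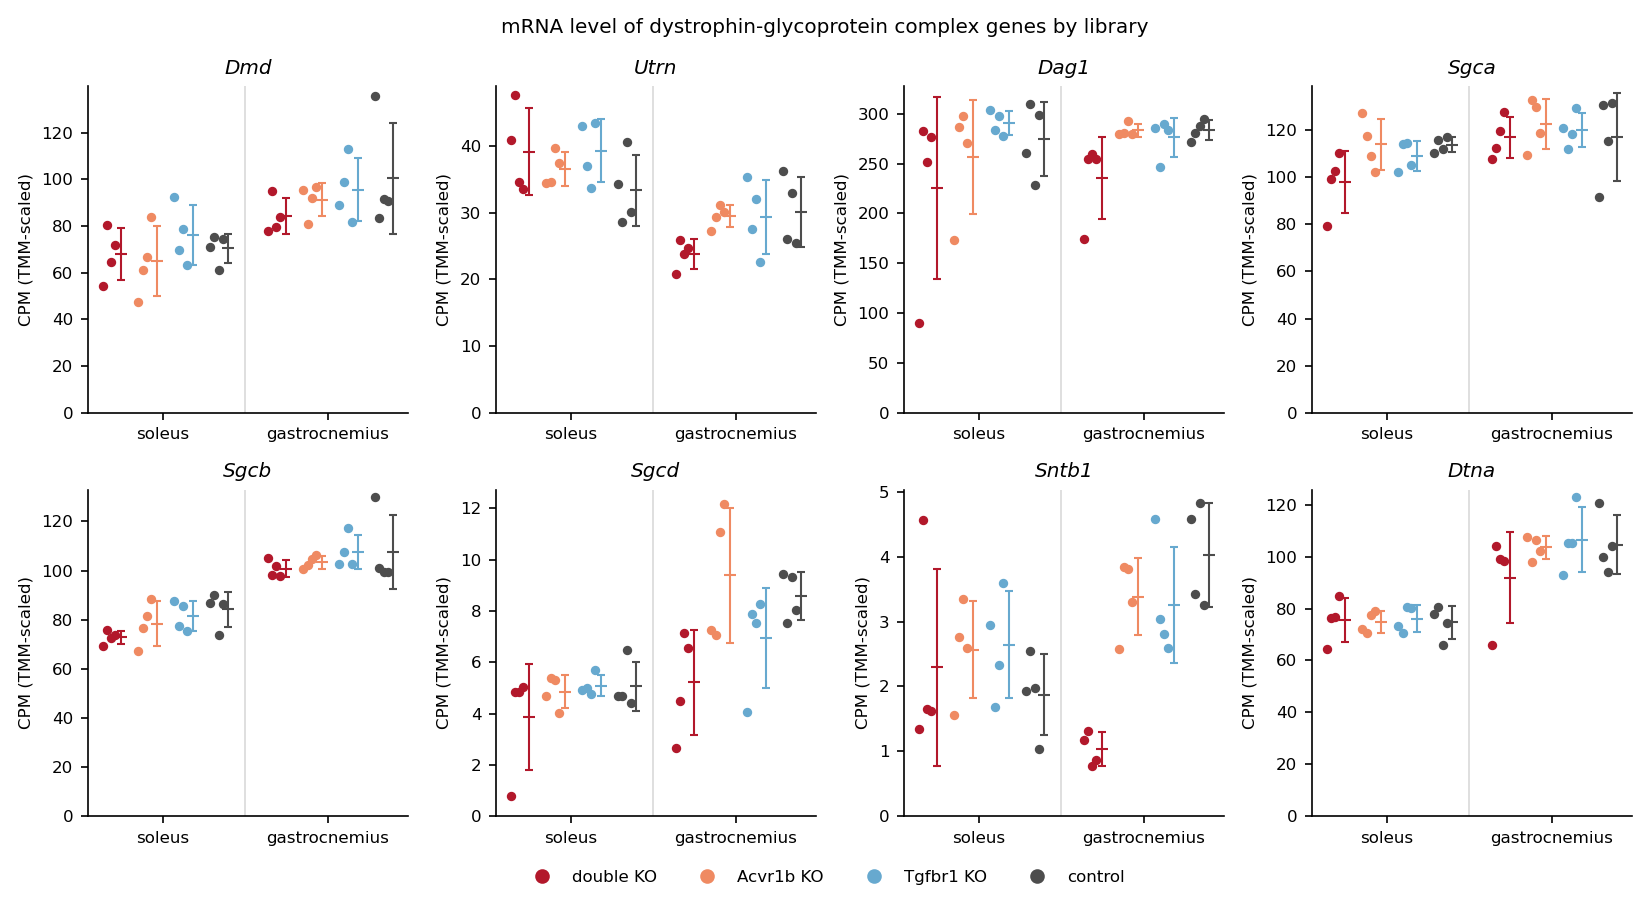
Level of the 8 genes in every library (CPM of the TMM-scaled library size, linear axis from 0), by muscle and genotype; points are libraries 1 to 4 from left to right, and the bar beside them is the mean ± SD (n = 4). Double KO gastrocnemius lies between 0.782 and 1.32 CPM for Sntb1, below every control gastrocnemius library, and soleus double KO 1 is low for Dag1 (90.01) and Sgcd (0.781).

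Markers of cell types also moved in double KO gastrocnemius, where 20.9% of all 17536 genes tested were called against control. Of 9 myofibre markers 6 fell and 0 rose, and their summed level was 116768 to 132496 CPM in double KO and 142675 to 170907 in control libraries. The log2 fold change was below 0 for 7 of the 9, so the markers did not move alike. Myh4 averaged 56146 CPM in double KO and 78107 CPM in control libraries. Acta1 averaged 26781 and 22630 CPM, and Ckm 17959 and 16461 CPM. Of 9 macrophage markers 5 rose and 0 fell, with sums of 66.8 to 106 and 51.3 to 61.1 CPM. Of 8 endothelial markers 3 fell and 0 rose, with sums of 191 to 213 and 236 to 258 CPM. Of 8 Schwann cell markers 0 passed, with sums of 35.3 to 41.8 and 42.4 to 68.7 CPM. No marker of these 4 lists was at 0 in any of these libraries. Of 7 smooth muscle and pericyte markers 2 fell, of 6 adipocyte markers 2 fell, of 5 tested neutrophil markers 1 fell, of 9 fibroblast and tendon markers 2 rose, and of 5 satellite cell markers 1 rose and 1 fell. In whole muscle, fewer cells of a type and less RNA per cell cannot be told apart, and the part of these shifts in the values of Sntb1, Sgcd and Dag1 was not tested.

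Loss of a single receptor gene gave no called member in gastrocnemius. Against control, 0 of 8 members were called in Acvr1b KO, where 0.0285% of all genes tested were called, and 0 of 8 in Tgfbr1 KO, where 0.171% were. At an unadjusted p under 0.05 these counts were also 0 and 0 (4.42% and 6.00% of all genes), and DESeq2 called 0 in both. Sntb1 measured 2.57, 3.84, 3.81 and 3.31 CPM in Acvr1b KO, a log2 fold change of -0.24 against control (95% interval -0.67 to 0.18), and 4.58, 3.03, 2.81 and 2.59 CPM in Tgfbr1 KO, a log2 fold change of -0.34 (-0.78 to 0.10). The values of both single knockouts overlapped those of control libraries. Over the 8 members the log2 fold changes ran from -0.24 to 0.13 in Acvr1b KO and from -0.34 to 0.04 in Tgfbr1 KO.

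The double KO was then set against each single KO in gastrocnemius. Sntb1 fell against Acvr1b KO (log2 fold change -1.71, SE 0.226, edgeR adjusted p = 8.14e-05) and against Tgfbr1 KO (-1.61, SE 0.230, edgeR adjusted p = 0.000228), and its double KO libraries lay below all libraries of either single KO. These comparisons and that against control share the double KO libraries. Of the 8 members 2 were called against Acvr1b KO, where 16.3% of all genes were, and 1 against Tgfbr1 KO, where 12.9% were. The second member called against Acvr1b KO was Sgcd, which measured 7.24, 7.06, 11.1 and 12.2 CPM in Acvr1b KO (log2 fold change -0.83, SE 0.258, edgeR adjusted p = 0.0364). Leaving out Acvr1b KO 3, Acvr1b KO 4, double KO 1 or double KO 2 each ended that call (edgeR adjusted p 0.0763 to 0.116). A fit of the compared groups alone called Utrn in its place (-0.30, adjusted p = 0.0199; 0.0199 to 0.277 over 14 alternatives). Against Tgfbr1 KO, Sgcd differed by -0.41 (95% interval -0.96 to 0.14, edgeR adjusted p = 0.348). Utrn passed against Tgfbr1 KO without Tgfbr1 KO 4 (-0.40, edgeR adjusted p = 0.0477) and not with it (-0.29, adjusted p = 0.201).

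**Figure D3:**
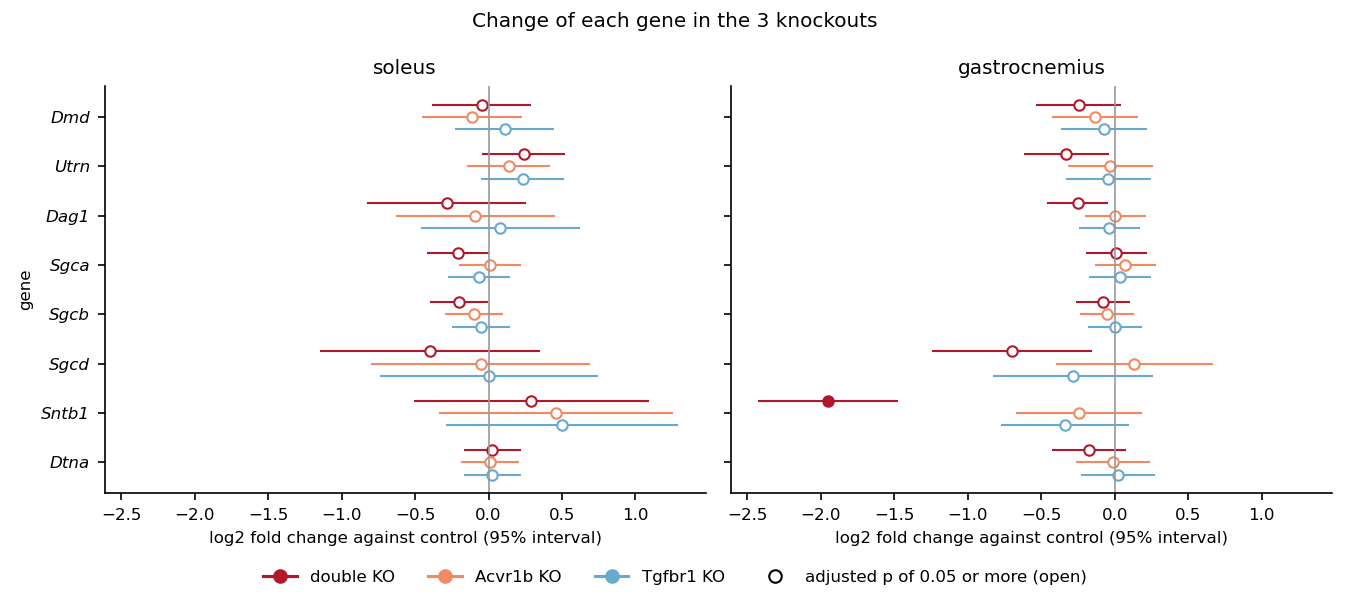
Log2 fold change against control (x axis, bars 95% intervals) of each gene in double KO, Acvr1b KO and Tgfbr1 KO, in soleus and gastrocnemius; filled points have an adjusted p under 0.05. The only filled point is Sntb1 in double KO gastrocnemius, at -1.95.

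In soleus no member passed any test between genotypes. In double KO against control 0 of 8 were called, where 0.722% of 18143 genes were; an unadjusted p under 0.05 was reached by 1 of the 8 and by 12.2% of all genes, and by DESeq2 0 were called. Sntb1 measured 1.35, 4.57, 1.66 and 1.62 CPM in double KO soleus, against 1.94, 2.55, 1.98 and 1.04 CPM in control soleus. Double KO 2 was the highest of all and the other values intermingled (log2 fold change 0.29, 95% interval -0.51 to 1.09, edgeR adjusted p = 0.818). Without that library the log2 fold change was -0.26, which was not called either. Sgcd measured 0.781, 4.85, 4.83 and 5.04 CPM in double KO soleus, against 4.70, 4.69, 6.49 and 4.40 CPM in control soleus, so double KO 1 alone was low (-0.40, -1.15 to 0.35, edgeR adjusted p = 0.701). Dag1 had the same shape, with 90.01, 283, 251 and 277 CPM in double KO soleus and 260, 310, 229 and 299 CPM in control soleus (-0.28, -0.83 to 0.26, edgeR adjusted p = 0.705). In soleus double KO 1 the summed myofibre markers were 46049 CPM, against 69085 to 80745 in control soleus, and the summed macrophage markers were 127 CPM, against 38.4 to 84.2. Their part in the low Dag1 and Sgcd values was not tested.

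The remaining soleus values lay closer together. Sgca measured 79.4 to 110 CPM in double KO and 110 to 117 in control soleus (log2 fold change -0.21, 95% interval -0.421 to 0.00157, edgeR adjusted p = 0.412). Sgcb measured 69.3 to 75.8 and 73.9 to 90.1 CPM (-0.20, -0.398 to -0.00403, edgeR unadjusted p = 0.0460, adjusted p = 0.397). Utrn measured 33.6 to 47.7 CPM in double KO and 28.6 to 40.5 in control soleus (0.24, -0.04 to 0.52, edgeR adjusted p = 0.496), Dmd 54.3 to 80.4 and 61.4 to 75.1 CPM (edgeR adjusted p = 0.941), and Dtna 64.5 to 84.8 and 66.0 to 80.5 CPM (edgeR adjusted p = 0.946). Acvr1b KO and Tgfbr1 KO against control gave 0 of 8 called members each, where 0.0220% and 0.0496% of all genes were called. Double KO against Acvr1b KO and against Tgfbr1 KO gave 0 of 8 each, where 0.127% and 0.0496% were. At an unadjusted p under 0.05 these 4 comparisons had 0, 0, 1 and 0 members (1.95%, 2.26%, 11.2% and 9.13% of all genes), and DESeq2 called 0 in each.

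In the main fit the double KO effect on Sntb1 differed between the muscles. Its counts were low in soleus too, 40 to 85 in control libraries and 57 to 162 in double KO libraries. The soleus effect minus the gastrocnemius effect was 2.25 on the log2 scale (SE 0.464, 95% interval 1.30 to 3.20, edgeR adjusted p = 0.0159). Sntb1 was the 1 member of 8 called here, where 0.732% of 18726 genes were called (137 genes, and 258 with the mouse as a block). The call was lost when only the compared groups entered the fit (2.23, adjusted p = 0.106), and over 22 alternatives the adjusted p ran from 0.000400 to 0.106. Without soleus double KO 2, the 1 high soleus library, the difference was 1.68 and the call was kept. Without the libraries that stood apart, and with the mouse as a block, the call was kept. Utrn came next in size, with a difference of 0.57 (95% interval 0.18 to 0.96) that was not called (edgeR adjusted p = 0.246). For the 6 other members the difference ran from -0.21 to 0.31 and was not called.

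Between the muscles of control mice, 4 of the 8 members were lower in soleus and 0 were higher, where 40.4% of 18726 genes were called. Sntb1 measured 1.94, 2.55, 1.98 and 1.04 CPM in soleus, against 4.58, 3.43, 4.83 and 3.25 CPM in gastrocnemius (log2 fold change -1.10, SE 0.317, edgeR adjusted p = 0.00634). Dtna measured 78.1, 80.5, 66.0 and 74.5 CPM in soleus, against 120, 99.9, 93.99 and 104 CPM in gastrocnemius (-0.49, SE 0.112, edgeR adjusted p = 0.000935). Sgcb measured 86.6, 90.1, 73.9 and 86.3 CPM in soleus, against 130, 101, 99.6 and 99.2 CPM in gastrocnemius (-0.35, SE 0.0882, edgeR adjusted p = 0.00203). For each of these, and for Dmd and Sgcd below, the muscles did not overlap. The share of all genes tested whose muscles did not overlap was not computed. Dmd measured 70.9, 75.1, 61.4 and 74.4 CPM in soleus, against 136, 83.4, 91.7 and 90.8 CPM in gastrocnemius (-0.51, SE 0.156, edgeR adjusted p = 0.00961), but its call was lost without gastrocnemius control 1 (-0.36, adjusted p = 0.0612; 0.00311 to 0.0642 over 14 alternatives).

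Sgcd was also lower in every control soleus library (4.70, 4.69, 6.49 and 4.40 CPM) than in any control gastrocnemius library (9.42, 7.55, 9.33 and 8.05 CPM). Its log2 fold change of -0.76 missed the threshold without pairing (edgeR adjusted p = 0.0629) and passed it with the mouse as a block (-0.77, adjusted p = 0.00687; 0.00168 to 0.132 over 14 alternatives). Utrn, Dag1 and Sgca had log2 fold changes of 0.15, -0.05 and -0.04 and were not called (edgeR adjusted p 0.406, 0.883 and 0.769). Utrn stood at 53.0 to 91.9% of Dmd per exon length in control soleus and at 37.2 to 49.9% in control gastrocnemius. Over all genotypes this share was 53.0 to 105% in the 16 soleus libraries and 37.2 to 55.2% in the 16 gastrocnemius libraries. Endothelial markers (6 of 8), smooth muscle and pericyte markers (5 of 7), adipocyte markers (6 of 6) and neutrophil markers (3 of 5 tested) were higher in control soleus than in control gastrocnemius. So was 1 marker each of macrophages (of 9), Schwann cells (of 8) and satellite cells (of 5), and 0 of 9 fibroblast and tendon markers passed. Of 9 myofibre markers 4 were higher and 3 lower, and their summed level was 69085 to 80745 CPM in control soleus and 142675 to 170907 CPM in control gastrocnemius. Of all genes tested between the muscles of control mice 40.4% were called. The part of these marker shifts in the values of the members was not tested.

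The genes that work with the complex were described through 5 lists of 71 genes in all, of which 64 were tested in gastrocnemius. In double KO gastrocnemius 10 rose and 10 fell against control, 31.2% of those tested, against 20.9% of all genes. Whether this share, or that of any single list, exceeds the share of all genes was not tested. The steepest fall among the partners was that of Nos1, the neuronal nitric oxide synthase that syntrophin anchors. Nos1 measured 118, 60.4, 73.3 and 82.2 CPM in double KO gastrocnemius, against 217, 160, 177 and 207 CPM in control gastrocnemius. The groups did not overlap (log2 fold change -1.17, SE 0.162, edgeR adjusted p = 8.21e-05), and the call held in 14 of 14 alternatives. In double KO soleus Nos1 measured 37.2, 21.4, 34.6 and 39.2 CPM, against 47.7, 62.5, 52.0 and 65.1 CPM in control soleus, which did not overlap but did not pass the test (-0.77, 95% interval -1.33 to -0.20, edgeR adjusted p = 0.239). The difference of the effects between muscles was not called either (0.41, edgeR adjusted p = 0.781).

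Of the other core subunits 7 of 9 were tested, and in double KO gastrocnemius 2 fell and 0 rose, where 20.9% of all genes were called. Dtnb, a second dystrobrevin gene and 1 of the 2, averaged 1.69 ± 0.532 CPM in double KO and 3.46 ± 0.558 CPM in control gastrocnemius (log2 fold change -1.02, SE 0.201, edgeR adjusted p = 0.00180). Its groups did not overlap. In a fit of the compared groups alone the list had 1 call, and without the libraries that stood apart it had 3. Sspn, the sarcospan gene, differed by -0.05 (edgeR adjusted p = 0.780).

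Of the cytoskeletal and membrane partners 14 of 16 were tested, and 3 rose and 4 fell, Nos1 among them. The share of all genes called was again 20.9%. Ank2, an ankyrin that binds dystrophin, fell (log2 fold change -0.50, edgeR adjusted p = 0.00882), and Dgkz, a diacylglycerol kinase that binds syntrophin, rose (0.47, adjusted p = 0.00314). In a fit of the compared groups alone 2 rose and 2 fell. Of the extracellular ligands 11 of 12 were tested, and 1 rose and 2 fell, beside the same 20.9% of all genes. Bgn, the proteoglycan biglycan, averaged 92.02 ± 17.9 CPM in double KO and 48.5 ± 5.17 CPM in control gastrocnemius (0.93, SE 0.122, edgeR adjusted p = 5.08e-05). Lama2, the laminin chain that dystroglycan binds in muscle, averaged 42.1 CPM in double KO and 50.1 CPM in control gastrocnemius (-0.24, edgeR adjusted p = 0.0451), a call that ended when double KO 2, 3 or 4, or control 3 or 4, was left out (adjusted p 0.0702 to 0.142), with the replicate block (0.0594), with no filter (0.0885) and in a fit of the compared groups alone (0.0979). Slit2, a secreted ligand at 0.267 CPM in double KO and 0.541 CPM in control gastrocnemius (-1.02, edgeR adjusted p = 0.0470), lost its call without any single library but double KO 1 (adjusted p 0.0564 to 0.149).

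Of the genes that build the sugar chains of dystroglycan 16 of 18 were tested, and 4 rose and 0 fell in double KO gastrocnemius. Of all genes tested in this comparison 20.9% were called. Among them B3galnt2, a glycosyltransferase of the core chain, averaged 124 CPM in double KO and 85.2 CPM in control gastrocnemius (log2 fold change 0.55, edgeR adjusted p = 0.00673), and Pomk, the kinase of that core, 12.98 and 10.01 CPM (0.39, edgeR adjusted p = 0.0101). Of the parallel adhesion and membrane repair genes 16 of 16 were tested, and 2 rose and 2 fell, beside the same 20.9% of all genes. Itgb1bp2, the muscle integrin-binding protein melusin, averaged 215 ± 47.6 CPM in double KO and 96.4 ± 15.6 CPM in control gastrocnemius (1.16, SE 0.155, edgeR adjusted p = 5.85e-05). Tln1, a talin, rose (0.65, adjusted p = 4.92e-05) while Tln2, the talin of mature fibres, fell (-0.45, adjusted p = 0.000888). Ahnak, a large scaffold at the membrane, averaged 231 ± 14.96 CPM in double KO and 392 ± 41.1 CPM in control gastrocnemius (-0.75, SE 0.0957, edgeR adjusted p = 4.23e-05).

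**Figure D4:**
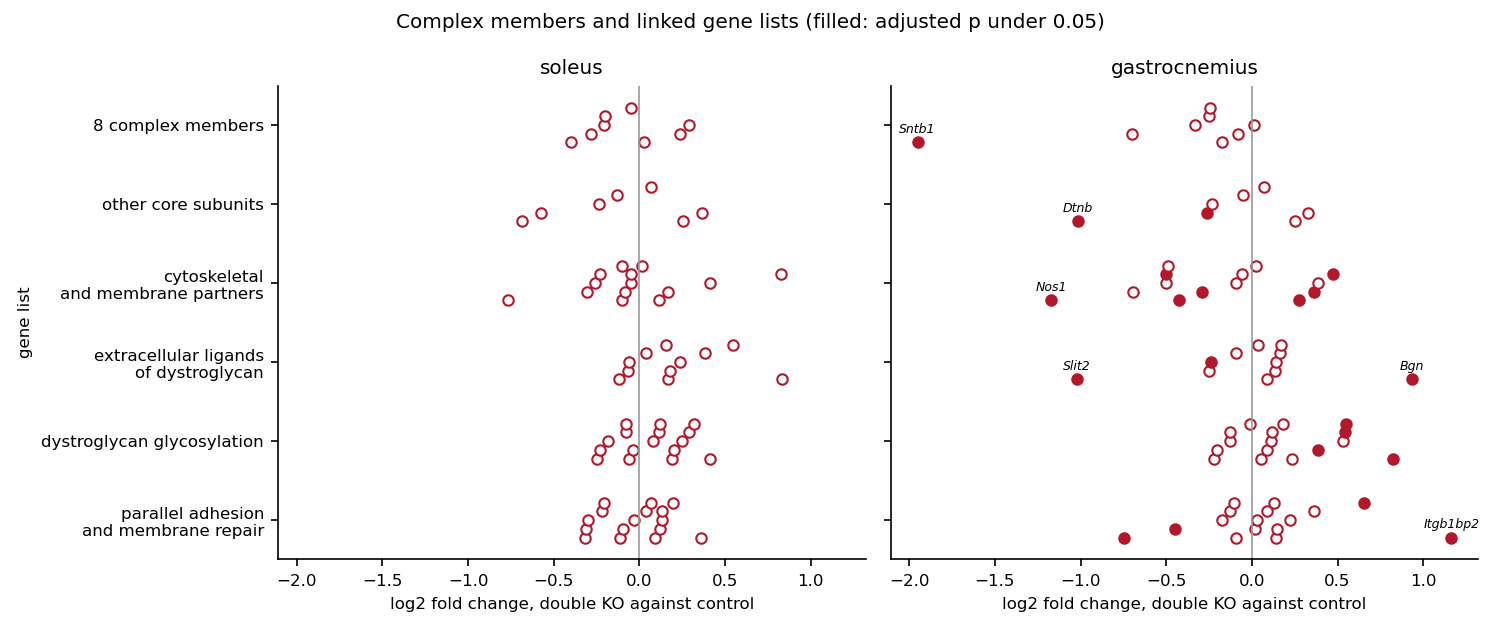
Log2 fold change of double KO against control (x axis) for the 8 complex members and for every tested gene of the 5 linked lists (rows), in soleus and gastrocnemius; filled points have an adjusted p under 0.05 and those beyond 0.9 in size are named. In gastrocnemius 20 list genes are filled, from Nos1 at -1.17 to Itgb1bp2 at 1.16, and in soleus 0 are.

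In double KO soleus 0 of the 64 list genes tested passed against control, where 0.722% of all genes did. Bgn differed there by 0.38 (95% interval -0.16 to 0.92), Itgb1bp2 by -0.03 (-0.63 to 0.56) and Ahnak by -0.09 (-0.36 to 0.17). The test of the difference between muscles called 1 of 65 list genes (1.54%, against 0.732% of all genes), Ahnak (soleus minus gastrocnemius 0.66, edgeR adjusted p = 0.0491), a call that was lost in 16 of 22 alternatives (adjusted p up to 0.172). With the mouse as a block Ahnak was not called (adjusted p = 0.0814), while Dtnb (1.30, adjusted p = 0.0163) and Itgb1bp2 (-1.34, adjusted p = 0.00282) were. In both single knockouts and both muscles 0 of 64 list genes were called against control. In control mice 12 of 65 list genes were higher and 14 lower in soleus than in gastrocnemius, which is 40% of them, against 40.4% of all genes. Nos1 averaged 56.8 CPM in control soleus and 190 CPM in control gastrocnemius (log2 fold change -1.74, SE 0.231, edgeR adjusted p = 5.36e-07), and Dtnb averaged 0.892 and 3.46 CPM (-1.95, SE 0.255, edgeR adjusted p = 4.32e-07).

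Over the 32 libraries, with each muscle centred on its own mean, log2 levels of the 28 pairs of members had Pearson's r from -0.40 to 0.80 with a median of 0.34, and 24 pairs were above 0. These values share library, depth and genotype and are given as a description. Dmd and Sgcb (0.80), Dag1 and Sgcd (0.78) and Utrn and Sntb1 (0.67) were the most alike, and Utrn and Sgca (-0.40) the least. Dag1 and Sgcd were both lowest of their group in gastrocnemius double KO 1 and in soleus double KO 1. Dmd and Sgcb were both highest of their group in gastrocnemius control 1. The part of these libraries in the r values was not tested. Among 8408 other genes of at least 5 CPM, those most like Dmd included Mtmr6 and Ccdc47 (0.90 and 0.89). Those most like Dag1 were Gys1, Fam160a1 and Arhgef6 (0.95, 0.94 and 0.94). Fitm1 and Mrpl28 were among those most like Sgca (0.92 and 0.90), and Sgcd varied most like Bdh1, Lrrc52 and Klhl34 (0.90 each). Utrn went with Fmnl2, Cadm1 and Kmt2c (0.84, 0.80 and 0.80), Sgcb with Gatad2b, Dld and Rb1cc1 (0.83, 0.82 and 0.81), Sntb1 with Tmem100, Lmo4 and Peli2 (0.81 each) and Dtna with Eif4e, Cyb5b and Ryk (0.81, 0.76 and 0.75).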

How the data were processed

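The deposited table holds estimated counts of reads in each gene from featureCounts 2.0.1 (strand setting 2, a read that aligns to several places shared as fractions) on Ensembl 102 models of GRCm38, per the file headers. The submitters' processing notes also name cutadapt, FastQC 0.11.9, HISAT2 and DESeq2. Sntb1 had fractional counts in 19 of 32 libraries, which made up 0.319% of its reads. Symbols were given to 55141 of 55487 identifiers from a reference list of gene names.

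Counts were rounded. Genes were kept by filterByExpr (17536 in gastrocnemius, 18143 in soleus, 18726 in both) and tested with edgeR 4.0.16 (R 4.3.3; TMM, robust quasi-likelihood test, 2-sided, Benjamini-Hochberg over all genes tested, threshold 0.05). The 16 libraries of a muscle shared 1 fit for genotypes, and all 32 shared 1 for muscles. The standard error is the log2 fold change divided by the square root of F. CPM came from the 32-library fit and was divided by merged exon length for values per kb. Total counts of 16535118 to 54456450 leave counting error small for all members but Sntb1 and Sgcd.

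Animal codes in the labels paired the muscles of 16 of 16 mice, and their deviations correlated by 0.034 to 0.579. Alternatives were RLE factors, no filter, DESeq2 1.42.0, a replicate or mouse block, only the compared groups, leaving out the libraries that stood apart, and leaving out each library. The 8 members, the 5 linked lists and the marker lists were chosen with earlier results of these data known. Of each list the 4 called genes with the largest log2 fold change in double KO were named; Sspn, Nos1 and Lama2 were named in any case, and some genes that this rule or the likeness of patterns picks are not reported here. Nothing in the labels says how mice of a group were related. The p-values set a difference between groups against the spread between these mice, pooled over the groups of a fit. The edgeR steps were tested on simulated counts.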

Additional observations from a re-analysis of the deposited data

Results flagged for a closer look

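In a group of 4, a library was singled out when its gap to the nearest other library was nearly the whole range of the group (Dixon's criterion at 95%), which chance gives in about 1 of 20 groups. Of 64 groups of gene and condition 10 met it. Dag1 met it in gastrocnemius double KO 1 (175 CPM, the others 255 to 260), in soleus double KO 1 (90.01, the others 251 to 283), in gastrocnemius Acvr1b KO 3 (292, the others 280 to 281) and in gastrocnemius Tgfbr1 KO 2 (247, the others 283 to 289). Sgcd met it in soleus double KO 1 (0.781 CPM, the others 4.83 to 5.04), in gastrocnemius Tgfbr1 KO 1 (4.05, the others 7.54 to 8.27) and in soleus control 3 (6.49, the others 4.40 to 4.70). Dtna met it in gastrocnemius double KO 1 (66.1 CPM, the others 98.3 to 104), Sgcb in gastrocnemius control 1 (130, the others 99.2 to 101) and Sntb1 in soleus double KO 2 (4.57, the others 1.35 to 1.66). Both muscles of double KO mouse 1 account for 4 of the 10. The double KO effect on Sntb1 also differed between muscles by a test of the difference itself (soleus minus gastrocnemius 2.25 on the log2 scale, edgeR adjusted p = 0.0159), while the soleus libraries of double KO mice held 1 high value.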

How the results depend on the processing

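No called value of a gene named in the text changed sign under any alternative. The uncalled Sntb1 value in double KO soleus against control (0.29) was -0.26 without double KO 2. The fall of Sntb1 in double KO gastrocnemius kept its call against control in 14 of 14 alternatives (log2 fold change -2.09 to -1.83). The number of members called in double KO against control in gastrocnemius was 2 with the replicate block and with DESeq2 (Sgcd joined Sntb1, adjusted p 0.0186 and 0.0346), and 1 to 2 when single libraries were left out. Against Acvr1b KO it was 1 with no filter and 1 to 2 without single libraries, and against Tgfbr1 KO 1 to 2. For the difference between muscles it was 0 with only the groups compared. The replicate number did not pair genotypes (0 or 1 of 4 same-numbered pairs correlated above 0.1 in each comparison), and the replicate block changed no other call of a member between genotypes. For comparisons between muscles the block was the mouse, which added a call of Sgcd in control mice (-0.77, adjusted p = 0.00687).

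Counts over all genes moved by over 1.5 times in these cases. With only the groups compared, double KO against control gave 2330 genes in gastrocnemius (3673 otherwise) and 35 in soleus (131), Acvr1b KO against control in gastrocnemius 3 (5), double KO soleus against Acvr1b KO 0 (23) and against Tgfbr1 KO 2 (9), and the difference between muscles 31 (137). DESeq2 gave 410 for double KO soleus against control, 152 against Acvr1b KO, 84 against Tgfbr1 KO and 229 for the difference between muscles. For Acvr1b KO and Tgfbr1 KO against control it gave 26 and 57 (5 and 30 otherwise) in gastrocnemius and 9 and 19 (4 and 9) in soleus. Without the libraries that stood apart, the same 4 counts were 8, 100, 7 and 18, double KO against Acvr1b KO in gastrocnemius gave 4322 (2852), double KO against control in soleus 308, and the difference between muscles 283. The replicate block gave 2 for Acvr1b KO gastrocnemius and 15 for double KO against Acvr1b KO in soleus, the mouse block 258 for the difference between muscles, and no filter gave 17 for Tgfbr1 KO soleus. Leaving out single libraries gave 3 to 9 for Acvr1b KO gastrocnemius, 4 to 15 for Tgfbr1 KO soleus, 64 to 308, 8 to 23 and 4 to 11 for double KO soleus against control, Acvr1b KO and Tgfbr1 KO, and 72 to 337 for the difference between muscles. The causes were not tested. Counts of 31 to 172 per library limit the precision of Sntb1 in gastrocnemius, and counts of 40 to 162 limit it in control and double KO soleus.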
